A study of Homo sapiens with 8 samples.

Results

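This section compares an active with a dominant negative form of the small GTPase HRAS in HaCaT, a line of spontaneously immortalized keratinocytes from human skin. The arrays were chosen by their titles: the 2 arrays of cells infected with an adenovirus for HRAS G12V, the constitutively active form, were set against the 2 arrays of cells infected with an adenovirus for HRAS N116Y, the dominant negative form. They are 4 of the 8 arrays of the series. On each side 1 culture had received TGF-beta3 at 5 ng/ml for 24 hours and 1 was left untreated, so the vectors were compared within each TGF-beta state and no array of the LacZ control vector entered the comparison. All 4 cultures carried an adenoviral vector and grew in medium with serum; HaCaT cells also carry mutant p53. The design text speaks of constitutively active and dominant negative RAS, and the dose of virus, the time from infection to harvest and the share of infected cells are not given in the sources used here. Each of the 4 conditions had 1 array, and nothing says that cultures were replicated, so every p-value below reflects how far these few arrays varied, a spread that may be technical. One label field has the 2 TGF-beta states exchanged on the adenovirus arrays; the titles and the field on stimulation were used, and the pairing of arrays is the same under either reading. Under the other reading, the 2 states would change places throughout.

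HRAS cycles between a GDP-bound and a GTP-bound state. In the GTP-bound state it activates RAF, MEK and ERK, PI3-kinase and RAL exchange factors. The G12V form cannot hydrolyse GTP efficiently and stays active, whereas the N116Y form binds nucleotides poorly and holds exchange factors, so that it blocks the cell's own RAS. In keratinocytes RAS and ERK signalling is known for driving proliferation, the release of EGF receptor ligands and interleukin-1, and for opposing parts of terminal differentiation. ERK output is limited by feedback genes that ERK itself induces, among them the dual-specificity phosphatases and the Sprouty proteins. A comparison of the active with the blocking form spans the action of both vectors, so a difference can come from either side. The LacZ signals are given as a level beside some genes, and no difference from LacZ was tested.

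RNA was hybridised to Affymetrix arrays and 1 linear signal per probe set had been made with MAS5; here a signal is that value scaled to a trimmed mean of 100 on each array. Between 28.0% and 29.9% of the probe sets of the 8 arrays had a signal of at least 50. The ratio of 3' to 5' actin probe sets, which rises as RNA or its labelling is less complete, was 1.39 and 1.19 on the HRAS G12V arrays without and with TGF-beta3 and 1.22 on both HRAS N116Y arrays; that of GAPDH lay between 0.942 and 0.981. Of 12 keratinocyte markers with a probe set, 12 had a signal of at least 50 on all 4 arrays, with KRT14 between 6417 and 10817. Of the 10 leukocyte and 8 endothelial markers with a probe set, 0 reached 50 on enough arrays to be tested, and their summed signals lay between 70.0 and 94.8 and between 43.7 and 72.5. The summed signals of the 12 fibroblast markers with a probe set were 298 and 623 with HRAS G12V against 380 and 612 with HRAS N116Y, without and with TGF-beta3. For melanocyte markers, 7 with a probe set, the sums were 114 and 114 against 168 and 123. HRAS itself had signals of 109 and 86.1 on the G12V arrays and 67.1 and 58.1 on the N116Y arrays, without and with TGF-beta3, against 316 and 287 on the LacZ arrays. Its difference of 0.63 ± 0.27 (log2, SE) did not pass the test (adjusted p = 0.141 with 4 arrays and 0.0731 with 6). The array has 1 probe set for HRAS, and whether it lies in the part carried by the vectors is not known here, so it checks nothing about the inserts.

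The vectors differed in many genes, and the largest differences were in genes lower with the active form. Among 8817 genes tested in the 4 arrays, 349 (3.96%) were called higher and 437 (4.96%) lower with HRAS G12V at an adjusted p under 0.05. These 2 shares are the background for the list counts below, and no list was tested against them. In a fit of 6 arrays that adds the LacZ pair to estimate the spread, 211 (2.39%) were called higher and 331 (3.75%) lower. Of these, 207 and 327 were called in both fits. Each gene's difference is the same number in both fits, so its direction could not change and only the spread differs. A call in both fits is therefore no independent support. Without any test, 35 genes (0.397%) were at least 2-fold higher and 108 (1.22%) at least 2-fold lower in both TGF-beta states. All of these were also called with 4 arrays. That call rests on the same ratios and on a spread shared by genes of like signal, so the overlap is no separate support. The 35 were 42.2% of the 83 genes at least 2-fold higher without TGF-beta3 and 18.8% of the 186 with it, and the 108 were 58.7% of 184 and 37.9% of 285 lower genes. Only 5 genes were at least 2-fold apart in opposite directions. Both G12V arrays lay above both N116Y arrays in 1209 genes tested (13.7%) and below them in 1589 (18%).

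The 4-array test rests on 1 residual degree of freedom, and its prior took an infinite number of degrees of freedom. Each gene was thus given the spread typical of its signal and none of its own. The SE printed with each difference is that shared spread and does not show how far a gene's 2 pairs lay apart. The call in the 6-array fit, with 2 residual degrees of freedom, is therefore given beside the genes named. Fits that leave out 1 array, given below, also hold the LacZ arrays. Their like base is thus the 6-array fit, and a change from a 4-array count is partly a change of fit. The counts fell to 0 and 0 without the filter on dim genes and without TGF-beta state as a block, and to 2 higher and 11 lower when a gene's probe sets were averaged, while 798 and 897 genes had an unadjusted p under 0.05 in the 4-array fit. When 1 of the 4 arrays was left out, in a fit of the other 5 adenovirus arrays, the calls were 221 higher and 308 lower without the untreated G12V array, 90 and 211 without the G12V array with TGF-beta3, 708 and 794 without the untreated N116Y array, and 527 and 536 without the N116Y array with TGF-beta3; counts without an array below come from these fits.

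**Figure D1:**
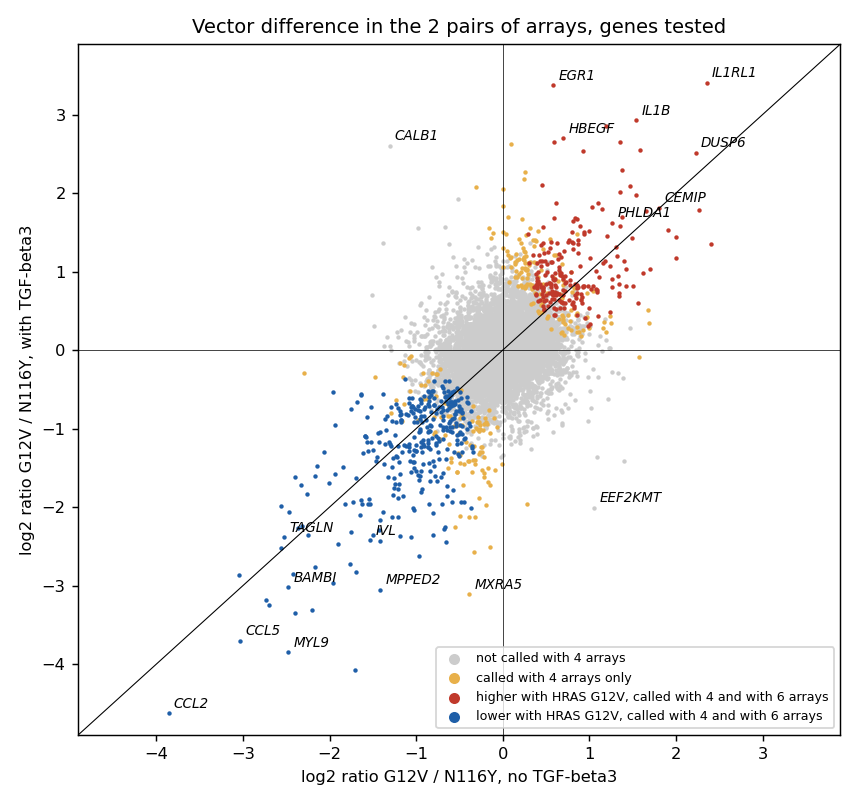
Log2 ratio of the HRAS G12V to the HRAS N116Y array without TGF-beta3 (x axis) and with it (y axis), 1 point for each of 8817 genes tested; colours give the calls. The ratios of the 2 pairs had a Pearson r of 0.505 and a Spearman rho of 0.381 over genes, CCL2 and CCL5 lay farthest to the lower left, and IL1RL1 farthest to the upper right.

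Over all genes tested the log2 ratios of the 2 pairs, which come from 4 separate arrays, had a Pearson r of 0.505 and a Spearman rho of 0.381, given as a description since genes are not independent. The SD of the ratios was 0.431 without and 0.515 with TGF-beta3, and the medians were -0.022 and -0.006. The vectors thus stood somewhat further apart in the pair with TGF-beta3, also by the counts of 2-fold genes above; with 1 array for each condition this was not tested.

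Among genes higher with HRAS G12V, IL1RL1, which encodes the receptor for interleukin-33 and is induced by growth signals, stood first by its brightest probe set. Its signals were 394 and 334 on the G12V arrays without and with TGF-beta3 and 77.1 and 31.5 on the N116Y arrays. Both G12V arrays lay above both N116Y arrays, and the mean difference was 2.88 ± 0.24 (log2, SE), or 7.36-fold (adjusted p = 3.27e-30 with 4 arrays and 1.24e-04 with 6). The LacZ signals of IL1RL1 were 596 and 362, near or above those with HRAS G12V. Of its 3 other probe sets, 1 gave 90.3 and 66.3 against 32.3 and 13.4, 1 gave 57.9 and 39.2 against 19.1 and 13.8, and the last was under 10 on all 4 arrays; with the mean of all 4 the difference was 1.43. DUSP6, the phosphatase that inactivates ERK and is itself induced by ERK, had signals of 785 and 1922 with HRAS G12V against 168 and 336 with HRAS N116Y. The groups did not overlap, and the difference was 2.37 ± 0.19, or 5.18-fold (adjusted p = 1.27e-31 and 7.68e-05). The 2 other DUSP6 probe sets gave 653 and 1113 against 156 and 257, and 348 and 730 against 105 and 179, so all 3 placed both G12V arrays above both N116Y arrays.

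CCL2, the chemokine that draws monocytes, had the largest difference in the other direction. Without and with TGF-beta3 its signals were 20.9 and 71.5 on the G12V arrays, as opposed to 303 and 1761 on the N116Y arrays. The LacZ arrays, at 50.6 and 118, lay above the G12V arrays of the same state, nearer to them than to the N116Y arrays. The difference between the HRAS vectors was -4.24 ± 0.23, or 18.9-fold (adjusted p = 7.01e-72 and 7.68e-05). CCL5, a chemokine for T cells, followed with 29.6 and 43.2 against 242 and 562, a difference of -3.37 ± 0.25. Its 2 other probe sets likewise had both N116Y arrays above both G12V arrays, the second at 30.3 and 35.7 against 171 and 598. NEURL3, a RING-type ubiquitin ligase, had 26.7 and 24.5 against 178 and 222. TMT1A, a thiol methyltransferase, had 24.6 and 21.6 against 129 and 220.0. With a floor of 50 on the signal in place of 20 the differences of CCL2, CCL5, NEURL3 and TMT1A became -3.61, -2.88, -1.99 and -1.75, since their G12V signals were near or under that floor. CCL5, NEURL3 and TMT1A reached 50 on the N116Y arrays only, so they passed the filter by the side where they were high. Over the 9 processing alternatives the adjusted p ran from 2.79e-73 to 0.866 for CCL2, from 4.64e-32 to 0.866 for DUSP6 and from 1.04e-30 to 0.866 for IL1RL1, and was under 0.05 in 7, 7 and 6 of them.

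**Figure D2:**
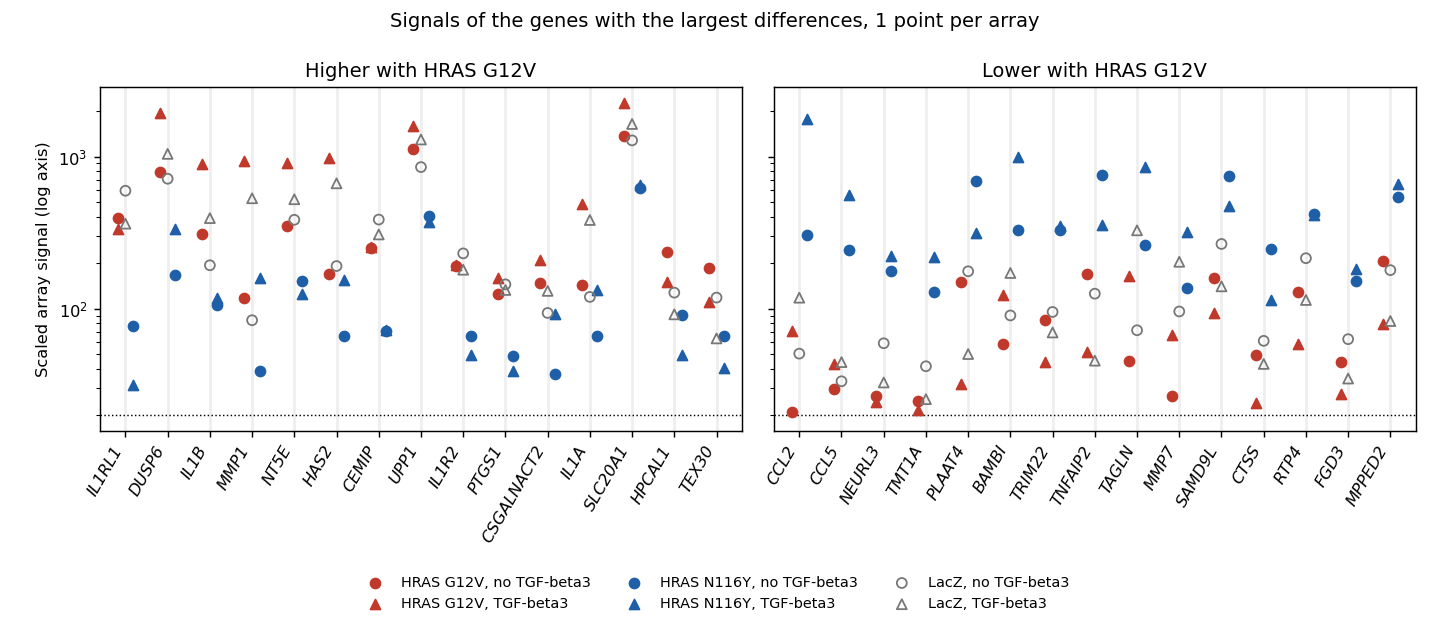
Scaled signal (log axis) of the 15 genes higher (left) and the 15 lower (right) with HRAS G12V that had the largest mean difference, 1 point per array; filled red points are HRAS G12V, filled blue HRAS N116Y, open grey LacZ, circles without and triangles with TGF-beta3, and the dotted line is the floor of 20. On the right the grey points mostly lie nearer the red than the blue ones of the same shape. On the left red and grey points lie above the blue ones of the same shape.

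RefSeq's promoter table (GRCh38.p14) holds an entry for 22 of these 30 genes, 13 higher and 9 lower. The 250 bases before the start are shown for IL1RL1, DUSP6 and NEURL3, which had the largest differences on their sides among genes with an entry, and for MMP7 and SAMD9L, the lower genes with an AP-1 match (TGANTCA, the site of FOS and JUN dimers, which ERK activity raises). AP-1 and NF-kappaB matches are marked since an AP-1 subunit and genes that NF-kappaB induces are among those described below. Matches also lie in promoters of UPP1 (both motifs), IL1A (AP-1), and IL1R2, SLC20A1 and MPPED2 (NF-kappaB), which are not shown. Capitals mark those matches, on either strand; NEURL3 is shown at both of its listed starts, and IL1RL1 at that of its 2 listed starts which holds a match.
IL1RL1, chr2:102337007-102337256, plus strand, an AP-1 match 191 bases before the start: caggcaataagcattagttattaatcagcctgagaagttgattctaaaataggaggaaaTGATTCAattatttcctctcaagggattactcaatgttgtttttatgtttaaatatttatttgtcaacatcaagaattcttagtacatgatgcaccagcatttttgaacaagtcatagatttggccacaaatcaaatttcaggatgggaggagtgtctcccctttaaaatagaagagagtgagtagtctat
DUSP6, chr12:89352502-89352751, minus strand: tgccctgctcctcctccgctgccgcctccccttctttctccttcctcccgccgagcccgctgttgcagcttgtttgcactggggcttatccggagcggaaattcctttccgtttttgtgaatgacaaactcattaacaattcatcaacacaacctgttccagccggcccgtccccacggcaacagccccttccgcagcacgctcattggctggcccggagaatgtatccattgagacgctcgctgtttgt
NEURL3, chr2:96508110-96508359, minus strand, NF-kappaB matches 185 and 165 bases before the start: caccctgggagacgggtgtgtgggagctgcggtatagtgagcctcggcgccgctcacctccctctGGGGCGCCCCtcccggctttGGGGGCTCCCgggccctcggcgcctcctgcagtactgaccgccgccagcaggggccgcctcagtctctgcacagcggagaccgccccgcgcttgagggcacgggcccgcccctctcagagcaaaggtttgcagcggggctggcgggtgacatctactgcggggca
NEURL3, chr2:96505358-96505607, minus strand, overlapping NF-kappaB matches 106 and 105 bases before the start: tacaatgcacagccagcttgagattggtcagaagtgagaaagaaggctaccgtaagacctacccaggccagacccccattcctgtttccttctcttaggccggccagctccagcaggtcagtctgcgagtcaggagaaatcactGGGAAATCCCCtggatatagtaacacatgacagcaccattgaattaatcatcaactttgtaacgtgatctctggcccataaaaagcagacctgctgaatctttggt
MMP7, chr11:102530748-102530997, minus strand, an AP-1 match 67 bases before the start: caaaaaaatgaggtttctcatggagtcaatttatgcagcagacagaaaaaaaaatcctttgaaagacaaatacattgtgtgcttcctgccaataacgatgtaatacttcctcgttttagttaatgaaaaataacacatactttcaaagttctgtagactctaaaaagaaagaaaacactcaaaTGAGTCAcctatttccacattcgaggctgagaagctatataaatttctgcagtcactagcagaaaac
SAMD9L, chr7:93148386-93148635, minus strand, an AP-1 match 139 bases before the start: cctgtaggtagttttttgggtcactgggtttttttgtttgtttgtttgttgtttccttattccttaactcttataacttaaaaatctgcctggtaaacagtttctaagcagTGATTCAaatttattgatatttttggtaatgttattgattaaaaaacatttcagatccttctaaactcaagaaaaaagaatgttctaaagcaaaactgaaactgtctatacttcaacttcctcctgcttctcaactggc

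These letters occur in many promoters, and the matches are a description of sequence only. AP-1 matches were found in 6.57% of all 35116 promoters, 4.54% of those of genes tested, 7.94% of those of genes called higher and 7.26% of those called lower. For NF-kappaB the shares were 9.96%, 11.8%, 12.4% and 14.3%. ETS sites (CCGGAAGT) were in 3.42% of all promoters, 7.01% of those of genes tested, 3.97% of those called higher and 1.27% of those called lower. The interferon response element was in 3.02%, 2.46%, 2.10% and 5.81%, and the serum response element in 1.16%, 1.16%, 1.17% and 2.54%. A gene with several starts counts once for each.

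Several feedback genes of ERK were higher with the active form. Of 14 phosphatases, Sproutys and SPREDs, 9 were tested, 4 were called higher in both fits and 0 lower, against 3.96% higher over all genes; their median difference was 0.60 against -0.01 over all genes, and 2 were called without the G12V array with TGF-beta3. Beside DUSP6, DUSP4, a nuclear phosphatase for ERK and other MAP kinases, had 192 and 278 with HRAS G12V against 99.8 and 98.3 with HRAS N116Y (difference 1.22 ± 0.23). SPRY2, an inhibitor of the path from growth factor receptors to ERK, had 144 and 164 against 79.1 and 94.2 (0.83 ± 0.25), and DUSP7, another ERK phosphatase, 203 and 397 against 133 and 227 (0.71 ± 0.22). In SPRY2 the groups did not overlap, whereas in DUSP7 the untreated G12V array lay below the treated N116Y array.

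The other 5 tested members did not pass. SPRED2 and SPRED1, which restrain RAS through neurofibromin, had differences of 0.60 ± 0.22 (adjusted p = 0.0721) and 0.43 ± 0.21 (0.222). DUSP10, which acts on p38 and JNK, had -0.48 ± 0.17 (0.0573), with 1158 and 1122 against 1437 and 1751. DUSP5 had 102 and 99.3 against 148 and 47.3, and DUSP1 79.5 and 61.8 against 64.1 and 91.0, so the direction of each differed between the pairs.

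Early genes and transcription factors induced by ERK were higher in larger number than lower. Of 21 tested, 9 were called higher and 2 lower, 7 and 2 of them in both fits, with a median difference of 0.29. EGR1, the zinc finger factor of the serum response, had signals of 178 and 1080.1 with HRAS G12V against 118 and 104 with HRAS N116Y. One array, HRAS G12V with TGF-beta3, stood far above the other 3, and the LacZ arrays were at 129 and 473. Its difference of 1.98 ± 0.22 thus averaged a log2 ratio of 0.59 without and 3.38 with TGF-beta3 (adjusted p = 3.08e-17 with 4 arrays, 0.0384 with 6, and between 1.35e-17 and 1 over 9 alternatives). Without the G12V array with TGF-beta3 the difference was 1.10, and without the N116Y array with TGF-beta3 0.77. A dimmer probe set of EGR1 gave 95.8 and 342 against 67.6 and 55.6. With the mean of its 3 probe sets the difference was 1.28.

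PHLDA1, an early gene that marks ERK activity, differed evenly, at 2053 and 2223 against 856 and 723 (1.44 ± 0.17). FOSL1, the FRA-1 subunit of AP-1 that ERK stabilises, had 564 and 593 against 310 and 187 (1.26 ± 0.20). IER3 (1.23), MAFF (1.13), the ETS factor ETV4 (0.98) and PHLDA2 (0.86) were also called higher in both fits, and HMGA2 (0.65) and ELK3 (0.53) with 4 arrays only. The 2 lower members were EPHA4, an ephrin receptor, with 31.8 and 166 against 81.3 and 380.2 (-1.28 ± 0.25), and the stress factor ATF3 (-0.77).

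Several ligands of the EGF receptor family were higher with HRAS G12V. Of 8 ligands and receptors tested, 4 ligands were called higher in both fits and 0 lower, with a median of 0.48. HBEGF, a ligand shed from the membrane, had 155 and 767 against 95.5 and 118 (1.70 ± 0.22). Of these 4 arrays it was high only on the G12V array with TGF-beta3, as EGR1 was. It was also high on the LacZ array with TGF-beta3, with LacZ at 156.0 and 486.5. The difference was 1.03 without the G12V array with TGF-beta3 and 0.86 without the N116Y array with TGF-beta3. A further HBEGF probe set gave 106 and 406 against 42.3 and 68.0, and with the mean of all 4, of which the other 2 were dim, the difference was 0.91. EREG, epiregulin, had 219 and 159 against 88.0 and 69.1 (1.26 ± 0.24). NRG1, the ligand of ERBB3 and ERBB4, had 984 and 678 against 388 and 377 (1.09 ± 0.19). TGFA had 450.2 and 712 against 278 and 438 (0.70 ± 0.20), with nearly the same ratio in both pairs. With the mean of all probe sets EREG moved to 0.63 and NRG1 to 0.32.

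Genes of RAS proteins, exchange factors and GAPs did not pass: of 14 tested, 0 were called in either limma fit, and 2 higher and 2 lower had an unadjusted p under 0.05 with 4 arrays. RASA2, a RAS GAP, had 256 and 261 against 143 and 215 (0.56 ± 0.22, adjusted p = 0.0943). MAP2K2, which encodes MEK2, had 139 and 262 against 267 and 274 (-0.50 ± 0.22, adjusted p = 0.149).

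**Figure D3:**
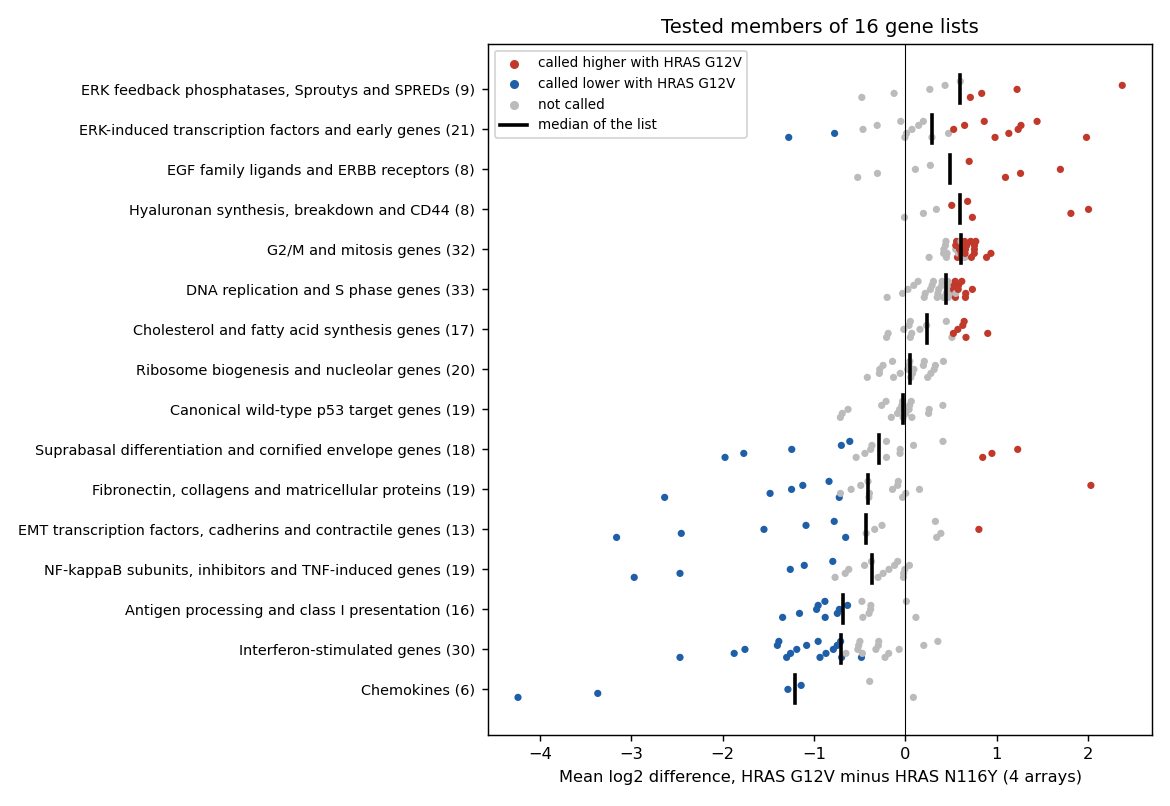
Mean log2 difference, HRAS G12V minus HRAS N116Y, of the tested members of 16 gene lists, 1 point per gene with the number tested in brackets; red points were called higher, blue lower, grey not called, and the black bar is the list's median. Median differences ran from 0.61 for G2/M genes to -1.21 for chemokines.

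Inflammatory genes went in both directions by family. In the interleukin-1 and interleukin-6 families 13 were tested, 4 were called higher and 2 lower, with 4 and 1 in both fits and 1 lower when either array with TGF-beta3 was left out. The higher ones were the ligands IL1B and IL1A and the receptors IL1RL1 and IL1R2, the last a decoy that binds interleukin-1 without signalling. IL1B had 309 and 889 with HRAS G12V against 106 and 117 with HRAS N116Y (2.23 ± 0.21), and its other probe set 296 and 752 against 104 and 104. IL1A had 143 and 486 against 66.4 and 132 (1.49 ± 0.23; 0.75 with the mean of its probe sets). IL1R2 had 191 and 195 against 65.7 and 49.6 (1.76 ± 0.25). The lower ones were the accessory receptor IL1RAP (-0.89) and, with 4 arrays only, the signalling receptor IL1R1 (-0.80).

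Several chemokines and NF-kappaB genes were lower with the active form. Of 19 chemokines 6 were tested, and 4 were called lower and 0 higher in both fits, against 4.96% lower over all genes; the median was -1.21. Beside CCL2 and CCL5, CXCL16 had 295 and 316 with HRAS G12V against 691 and 801 with HRAS N116Y (-1.29 ± 0.20). CXCL6, a neutrophil chemokine, had 138 and 211 against 277 and 513 (-1.14 ± 0.21). Of 19 NF-kappaB subunits, inhibitors and TNF-induced genes tested, 5 were called lower in both fits and 0 higher, with a median of -0.37.

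Among those 5, IL32, a cytokine induced by TNF, had 13.2 and 21.7 against 130 and 205, with 1 array under the floor of 20 (-2.97 ± 0.29, or -1.71 with a floor of 50). TNFAIP2 had 169 and 51.7 against 757 and 352 (-2.47 ± 0.22; -1.44 with the mean of its probe sets). NFKBIA, the inhibitor that NF-kappaB induces against itself, had 420 and 324 against 842 and 749 (-1.11 ± 0.19; -0.55 with the mean of its probe sets). IRF1, a factor of the interferon response, had 152 and 82.9 against 372 and 194 (-1.26 ± 0.23). The LacZ signals of NFKBIA, 455 and 326, and of IRF1, 186 and 96.7, were near the G12V arrays, as were those of TNFAIP2 at 125 and 45.5.

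Many interferon-stimulated genes were lower with the active form. Of 30 tested, 17 were called lower and 0 higher with 4 arrays, and 8 lower in both fits; the median was -0.70, and 10 were called without the G12V array with TGF-beta3. Without TGF-beta3 25 of the 30 had a negative ratio and with it 29. The medians were -0.49 and -0.90, against -0.022 and -0.006 over all genes tested. Since all were read on the same 4 arrays, these genes are not separate observations. TRIM22, an antiviral ubiquitin ligase, had 84.1 and 44.7 against 328 and 350.2 (-2.47 ± 0.24). XAF1 had 71.4 and 53.5 against 224 and 229 (-1.87 ± 0.24; -1.16 with the mean of its probe sets). RSAD2, the antiviral enzyme viperin, had 202 and 61.7 against 296 and 293 (-1.40 ± 0.23), with most of the difference in the pair with TGF-beta3, and did not pass with 6 arrays (adjusted p = 0.0513); without the N116Y array with TGF-beta3 it was -0.51. EPSTI1 (-1.39), IFIT1 (-1.19), OAS1 (-0.96), ISG15 (-0.94), PARP9 (-0.71) and GBP2 (-1.76, or -0.71 with a floor of 50) were called in both fits. All 4 cultures had been infected with adenovirus, and a difference in infection between them was not tested.

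Other large differences in the same direction were in genes outside this list that interferon is known to induce. SAMD9L, a growth-restraining protein, had 158 and 93.4 with HRAS G12V against 750 and 476 (-2.30 ± 0.21). RTP4, a receptor chaperone, had 129 and 58.4 against 416 and 415 (-2.26 ± 0.22), and PLAAT4, a phospholipid acyltransferase, 150.1 and 31.9 against 690 and 316 (-2.75 ± 0.23). CTSS, the lysosomal protease cathepsin S, had 49.5 and 23.9 against 247 and 113 (-2.28 ± 0.27; -1.44 with the mean of its probe sets). LacZ signals of PLAAT4, at 176 and 50.3, and of CTSS, at 61.4 and 43.3, lay nearer the G12V arrays.

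Several genes of class I antigen presentation were lower too. Of 16 genes tested, 9 were called lower in both fits and 0 higher, with a median of -0.68. PSMB9 had 483 and 351.1 against 1457 and 750, PSMB10 428 and 264 against 1013 and 557, and PSMB8 504 and 288 against 1005 and 543. These are the 3 catalytic subunits of the immunoproteasome, and their differences were -1.34 ± 0.19, -1.16 ± 0.19 and -0.95 ± 0.19. TAPBP, tapasin, which loads peptide on class I, had 440.3 and 530.0 against 1019 and 882 (-0.97 ± 0.19), and TAP1, a peptide transporter, was lower by -0.88. HLA-F (-0.88), HLA-B (-0.74), HLA-G (-0.72) and HLA-C (-0.63) were also called, but HLA genes are alike in sequence and their probe sets may not tell them apart.

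Prostaglandin and hyaluronan genes held several of the higher calls. Of 13 prostaglandin genes tested 4 were called higher and 2 lower, 4 and 1 in both fits. PTGS1, cyclooxygenase-1, had 125 and 158 with HRAS G12V against 48.8 and 39.2 with HRAS N116Y (1.68 ± 0.27). HPGD, which breaks prostaglandins down, had 256 and 98.6 against 745 and 385 (-1.75 ± 0.21). The reductases AKR1C2 (1.37), AKR1C1 (1.12) and AKR1C3 (1.09) were called higher, but they are near-identical copies whose probe sets may not separate them, and AKR1C1 moved to 0.48 and AKR1C2 to 0.91 with the mean of their probe sets.

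Of 8 hyaluronan genes tested, 5 were called higher and 0 lower, 3 of them in both fits, and 3 when any array but the untreated N116Y one was left out. HAS2, a hyaluronan synthase, had 170 and 977 against 66.5 and 155 (2.0 ± 0.22), and HAS3, another synthase, 737 and 880 against 382 and 661 (0.68 ± 0.19; 0.26 with the mean of its probe sets). CEMIP, which is needed to break hyaluronan down, had 251 and 253 against 71.5 and 72.1, the same ratio in both pairs (1.81 ± 0.24), with LacZ at 385 and 307. Its other probe set was dim, and the mean of both gave 0.97. The receptors HMMR (0.73) and CD44 (0.51) were called with 4 arrays only.

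Secreted proteases split. Of 12 metalloproteinases and TIMPs tested, 4 were called higher and 4 lower, 2 and 3 in both fits, with 2 higher when either array with TGF-beta3 was left out. MMP1, interstitial collagenase, had 118 and 936 with HRAS G12V against 39.2 and 160.2 with HRAS N116Y (2.07 ± 0.23), and MMP9, a gelatinase, 59.8 and 2292 against 23.1 and 468 (1.83 ± 0.22). In both genes the TGF-beta3 arrays were higher than the untreated array of the same vector, so the vectors separated within each state but overlapped across states. MMP13, another collagenase, went the other way, with 17.6 and 34.2 against 65.2 and 574 (-2.89 ± 0.27, or -1.95 with a floor of 50). MMP7, matrilysin, did so too, with 26.6 and 66.7 against 137 and 321 (-2.31 ± 0.26). The LacZ signals of MMP13, 16.6 and 54.8, lay nearer the G12V arrays, and those of MMP7, 95.8 and 203.2, nearer the N116Y arrays. TIMP2, a metalloproteinase inhibitor, was lower in both fits (-1.02).

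In the plasminogen system 12 were tested, and 2 were called higher and 1 lower, with 1 and 1 in both fits. The higher calls became 4 without the untreated N116Y array and 1 without either array with TGF-beta3, and the lower ones 2 without the N116Y array with TGF-beta3. PLAT, tissue plasminogen activator, had 49.5 and 22.1 against 164 and 84.8 (-1.83 ± 0.29; -1.24 with a floor of 50). SERPINE2, a protease inhibitor, had 350.7 and 3526 against 152 and 1282 (1.33 ± 0.18; 0.67 with the mean of its probe sets). SERPINB1 was called higher with 4 arrays only, and its pairs had opposite signs, at 1563 and 3040 against 1742 and 1034.

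Several contractile and matrix genes were lower with the active form. Of 13 genes of EMT factors, cadherins and contraction tested, 6 were called lower and 1 higher, 5 and 1 in both fits, with a median of -0.43. TAGLN, the actin-binding protein SM22, had 45.5 and 164 with HRAS G12V against 261 and 856 with HRAS N116Y (-2.45 ± 0.22), and a second probe set 20.5 and 166 against 224 and 1044. MYL9, a myosin light chain, was at 6.5 and 19.6 against 111 and 288; with both G12V arrays under the floor it was at least 8.94-fold higher with HRAS N116Y. MYLK, the kinase for that chain, had 74.6 and 59.5 against 117 and 324 (-1.55 ± 0.25, or -0.67 and not called without the N116Y array with TGF-beta3), and TPM1, a tropomyosin, 933 and 3085 against 1801 and 7229 (-1.09 ± 0.16). CDH2, N-cadherin, was lower in both fits (-0.78) and ACTN1, an actin crosslinker, higher (0.80).

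Of 19 fibronectin, collagen and matricellular genes tested, 6 were called lower and 1 higher in both fits, with a median of -0.41; without the G12V array with TGF-beta3, 3 were called lower. COL3A1, a fibrillar collagen chain, was under the floor on both G12V arrays, at 10.2 and 4.2 against 107 and 144. By this probe set it was at least 6.21-fold higher with HRAS N116Y (a log2 difference of -1.31 with a floor of 50). COL13A1, a transmembrane collagen, was under the floor on both N116Y arrays, at 96.6 and 69.1 against 19.3 and 12.5, and at least 4.08-fold higher with HRAS G12V. TNC, tenascin-C, had 139 and 187 against 223 and 906 (-1.48 ± 0.21, or -0.76 without the N116Y array with TGF-beta3). COL5A1 (-1.25, or -0.58 with a floor of 50), COL4A6 (-1.12), COL4A5 (-0.84) and LOXL2 (-0.72) were lower as well. COL3A1 is also in the list of fibroblast markers, of which 4 were tested and 1 more was called, MFAP5, which was higher (0.79); the part of such cells in these results was not tested.

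Several feedback and target genes of TGF-beta differed between the vectors in both states. Of 26 tested, 8 were called lower and 2 higher, 5 and 2 in both fits, and the median was -0.04. Without the G12V array with TGF-beta3 these were 3 lower and 0 higher, and without the N116Y array with TGF-beta3 5 lower. BAMBI, a decoy receptor that blunts TGF-beta signalling, had 58.9 and 122 with HRAS G12V against 329 and 989 with HRAS N116Y, with LacZ at 90.2 and 172 (-2.75 ± 0.22). TGFB2 had 108 and 114 against 221 and 469 (-1.53 ± 0.22), ID2 was lower by -1.21 and TGFBR2, the type II receptor, by -0.61. INHBA (0.86), a subunit of activin, and SMURF2 (0.84), a ubiquitin ligase for SMADs and receptors, were higher. ID4, ID3 and SMAD6 were called lower with 4 arrays only.

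Of 13 CDK inhibitors and G1 cyclins tested, 2 were called lower in both fits and 0 higher; the higher calls became 4 without the untreated N116Y array and 1 without the untreated G12V array or the N116Y array with TGF-beta3. The lower ones were CDKN2B and CDKN2A, neighbouring genes whose products inhibit CDK4 and CDK6. CDKN2B had 75.6 and 399 against 283 and 2215 (-2.19 ± 0.20), and CDKN2A 402 and 585 against 679 and 1859 (-1.21 ± 0.18; -0.78 with the mean of its probe sets and -0.76 without the N116Y array with TGF-beta3). CDKN1A, the p21 inhibitor, had 231 and 1634 against 217 and 985 and did not pass (0.41 ± 0.19, adjusted p = 0.202). None of the 19 tested targets of wild-type p53 was called in either limma fit, and 1 higher and 3 lower had an unadjusted p under 0.05 with 4 arrays.

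Many genes of mitosis and several of S phase were higher with HRAS G12V, by larger ratios in the pair with TGF-beta3. Of 32 G2/M genes tested, 21 were called higher and 0 lower with 4 arrays, and 11 in both fits; the median was 0.61. NUF2, a kinetochore protein, had 606 and 282 with HRAS G12V against 386 and 121 with HRAS N116Y (0.94 ± 0.21). BUB1B, a checkpoint kinase, had 1172 and 448 against 996 and 181 (0.77 ± 0.19), and NDC80, a kinetochore protein, 558 and 239 against 412 and 114 (0.76 ± 0.21). In each of them both TGF-beta3 arrays were lower than both untreated ones, so the vectors overlapped across states.

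The log2 ratio was positive for 31 of the 32 without TGF-beta3 and for 32 with it, and larger with it in 31; the medians were 0.32 and 0.91. The summed G2/M signals were 36339 and 16691 with HRAS G12V against 29110 and 9041 with HRAS N116Y, without and with TGF-beta3. The difference between the pairs was not tested, having 1 array for each condition, and in RNA of whole cultures fewer cycling cells and less RNA per cell cannot be told apart. The 6-array fit, which holds the LacZ arrays as the fits of 5 arrays do, called 11 G2/M genes higher and is their like base. In fits of 5 arrays, the count of 21 became 0 without the G12V array with TGF-beta3, 9 without the N116Y array with TGF-beta3, 15 without the untreated G12V array and 31 without the untreated N116Y array.

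Of 33 genes of DNA replication and S phase tested, 10 were called higher and 0 lower with 4 arrays, and 2 (CDT1 and RRM1) in both fits. CDT1, a licensing factor, had 450.1 and 188 against 273 and 124 (0.66 ± 0.22; 0.40 with the mean of its probe sets). CDC6, which licenses origins with it, had 1016 and 469 against 922 and 220 (0.62 ± 0.19, adjusted p = 0.0191 with 4 arrays and 0.108 with 6), with nearly all of the difference in the pair with TGF-beta3. The list's medians were 0.14 without and 0.71 with TGF-beta3. The 6-array fit, the like base for fits without 1 array, called 2 of these genes higher. Counts without each array ran from 0 (without the G12V array with TGF-beta3) to 26 (without the untreated N116Y array), with 2 without the N116Y array with TGF-beta3 and 7 without the untreated G12V array. With quantile normalization in place of scaling, 2 were called.

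**Figure D4:**
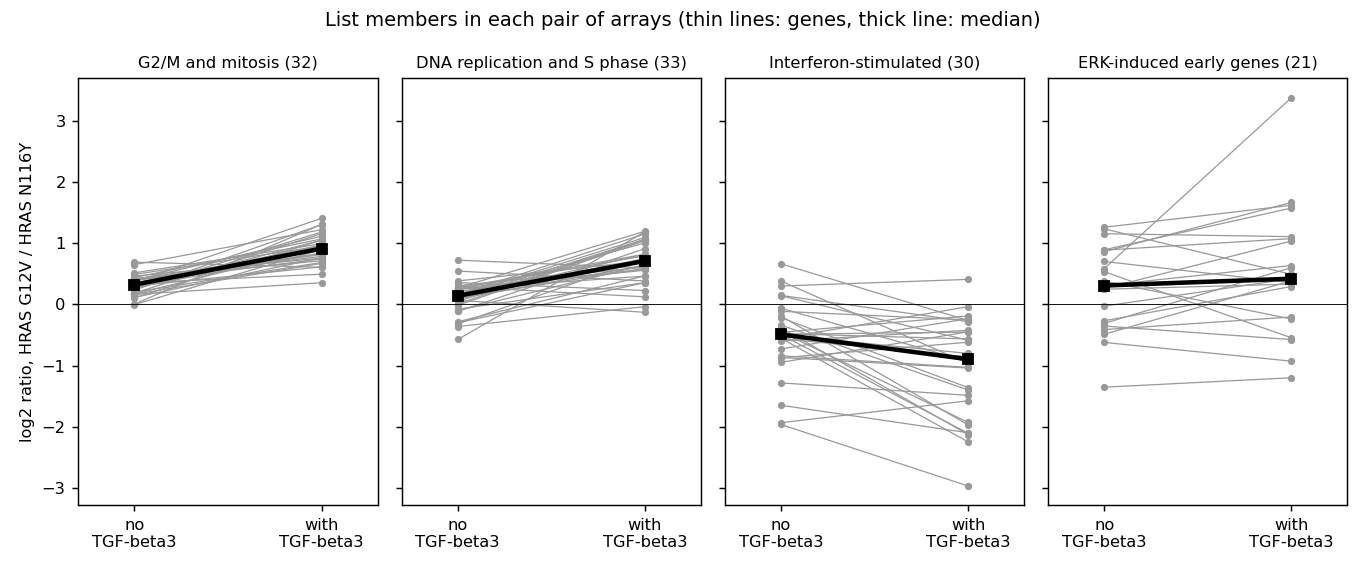
Log2 ratio of the HRAS G12V to the HRAS N116Y array in the pair without and the pair with TGF-beta3 for the tested members of 4 gene lists; thin grey lines are genes, black lines medians, with the number of genes in brackets. The medians moved from 0.32 to 0.91 for G2/M genes, from 0.14 to 0.71 for S phase genes and from -0.49 to -0.90 for interferon-stimulated genes.

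Differentiation genes were called in both directions, more often lower with the active form. Of 18 suprabasal and cornified envelope genes tested, 5 were called lower and 3 higher, 5 and 2 in both fits, with a median of -0.29; 2 were called lower without the untreated G12V array and 1 higher without the G12V array with TGF-beta3. IVL, involucrin, a precursor of the envelope, had 222 and 491 with HRAS G12V against 640 and 2625 with HRAS N116Y, with LacZ at 264 and 503 (-1.97 ± 0.19). ELF3, an epithelial ETS factor, had 229 and 124 against 709 and 465 (-1.77 ± 0.21), and LCN2, lipocalin-2, 93.7 and 67.6 against 364 and 97.7 (-1.24 ± 0.24, or -0.67 and -0.75 and not called without the untreated G12V or the untreated N116Y array). SPRR1B, another envelope precursor, was higher, at 140 and 1289 against 79.7 and 411 (1.23 ± 0.21), as were CSTA (0.85) and, with 4 arrays only, SPRR1A (0.95).

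Of 12 keratins tested, 4 were called lower in both fits and KRT18 higher with 4 arrays only; without the G12V array with TGF-beta3, 2 were called lower. KRT4, a mucosal keratin, had 321 and 54.6 against 980.3 and 135 (-1.46 ± 0.22; -0.83 with the mean of its probe sets), and KRT80 137 and 119 against 264 and 415 (-1.38 ± 0.22, or -0.87 without the N116Y array with TGF-beta3). KRT5, the basal keratin, had 3155 and 2975 against 4766 and 4719 (-0.63 ± 0.15). ITGA6, the integrin subunit of hemidesmosomes, was higher, at 2202 and 4783 against 1232 and 1489 (1.26 ± 0.16, or 0.81 without the N116Y array with TGF-beta3), and among 13 integrin and laminin subunits tested LAMB3 (0.63) was the other called, with 4 arrays only. Of 21 junction genes tested 1 was called lower and 0 higher, near the share of 4.96% lower over all genes tested. It was the tight junction gene CLDN1, at 1273 and 744 against 1611 and 1820 (-0.82 ± 0.17).

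Metabolic and surface genes were among the largest higher differences. NT5E, the ectonucleotidase CD73 and a member of the YAP and TAZ target list, had 348 and 903 with HRAS G12V against 152 and 125 with HRAS N116Y (2.02 ± 0.21). UPP1, uridine phosphorylase, had 1125 and 1587 against 405 and 372 (1.78 ± 0.19), and SLC20A1, a phosphate transporter, 1373 and 2249 against 618 and 647 (1.48 ± 0.18). CSGALNACT2, an enzyme of chondroitin sulfate synthesis, had 147 and 208 against 36.9 and 92.4 (1.58 ± 0.25), and HPCAL1, a calcium sensor, 234 and 149 against 91.1 and 49.8 (1.47 ± 0.25). TEX30 had 186 and 110.1 against 66.3 and 40.9 (1.46 ± 0.26). In each of these 6 genes both G12V arrays lay above both N116Y arrays, as in 13.7% of all genes tested. They were picked for being at least 2-fold higher in both pairs, so this is no separate support. On the lower side FGD3, an exchange factor for CDC42, had 44.6 and 27.4 against 151 and 181 (-2.24 ± 0.27), and MPPED2, a metallophosphodiesterase, 205 and 79.2 against 545 and 656 (-2.23 ± 0.21).

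Of 17 cholesterol and fatty acid synthesis genes tested, 6 were called higher and 0 lower, 4 of them in both fits, with a median of 0.23, and 1 was called without the G12V array with TGF-beta3. INSIG1, a sterol sensor partner, had 932 and 2070.1 against 472 and 1171 (0.90 ± 0.18), followed by STARD4 (0.66), MSMO1 (0.64) and IDI1 (0.63, or 0.21 with the mean of its probe sets). Of 23 genes of the ATF4 response and ER chaperones, 4 were called higher and 0 lower, with SLC7A11, the cystine transporter (0.76), and ASNS, asparagine synthetase (0.69, or 0.35 with the mean of its probe sets), in both fits. Without the G12V array with TGF-beta3 0 of these 23 were called higher, without the untreated G12V array 1, and without the untreated N116Y array 9. Of 15 NRF2 genes, 2 were called higher, AKR1C1 and SLC7A11, which are named above.

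Among 18 angiogenic factors, semaphorins and ephrins tested, 3 were called higher and 1 lower in both fits, with 0 higher without the G12V array with TGF-beta3 and 5 higher and 3 lower without the untreated N116Y array. VEGFA had 782 and 1246 against 514 and 699 (0.72 ± 0.18), and EFNA1, an ephrin, 305 and 451 against 611 and 1099 (-1.15 ± 0.19). NRP1, a VEGF co-receptor (1.00), and FGFBP1, which releases FGFs from the matrix (0.62), were the other higher ones. Of 23 glycolysis and hypoxia genes 2 were called higher with 4 arrays only and 2 lower in both fits, ADM, adrenomedullin (-1.13), and BNIP3 (-0.92). BNIP3 had 125.5 and 145.4 against 261.8 and 249.7, with LacZ at 256.7 and 215.7, nearer the N116Y arrays. Of 10 Notch genes 1 was called, HEY1 (1.30, or 0.54 with a floor of 50), and of 13 WNT genes 1, WNT10A (-0.97, or -0.49 with the mean of its probe sets). Of 15 BCL2 family and caspase genes 2 were called lower, the death activator BCL2L11, at 90.4 and 67.5 against 141 and 245 (-1.25 ± 0.24; -0.58 with the mean of its probe sets), and CASP1 (-0.84). None of the 20 ribosome biogenesis genes was called in either limma fit, and 2 higher and 0 lower had an unadjusted p under 0.05 with 4 arrays. Of 16 YAP and TAZ targets 2 were called, NT5E and, with 4 arrays only, CRIM1 (0.59). Over all genes tested 3.96% were called higher and 4.96% lower with 4 arrays. Lists with 1 or 2 calls were not tested against those shares. Counts of 2 or fewer in the lists described above moved by at most 4 calls as single arrays were left out.

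In some genes most of the difference between the vectors lay in 1 TGF-beta state, as seen from single arrays and not tested. MXRA5, a matrix-associated protein, had 274 and 95.0 with HRAS G12V against 357 and 821 with HRAS N116Y, so its log2 ratio was -0.39 without and -3.11 with TGF-beta3. SLC27A2, a fatty acid transport protein, had 325 and 143 against 407 and 628, and SNAPC4, a subunit of the snRNA activating complex, 79.1 and 20.7 against 99.5 and 123. All 3 were called lower with 4 arrays and did not pass with 6 (adjusted p between 0.0614 and 0.101). Without the N116Y array with TGF-beta3 their differences were -0.51, -0.23 and -0.63. With a floor of 50 the difference of SNAPC4 was -0.81, and with the mean of its probe sets -0.76, in place of -1.45. In 6 called genes the pairs had opposite signs, namely PRSS3, SERPINB1, SOX7, UBASH3B and ZBED2 among those called higher and MALAT1 among those called lower.

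**Figure D5:**
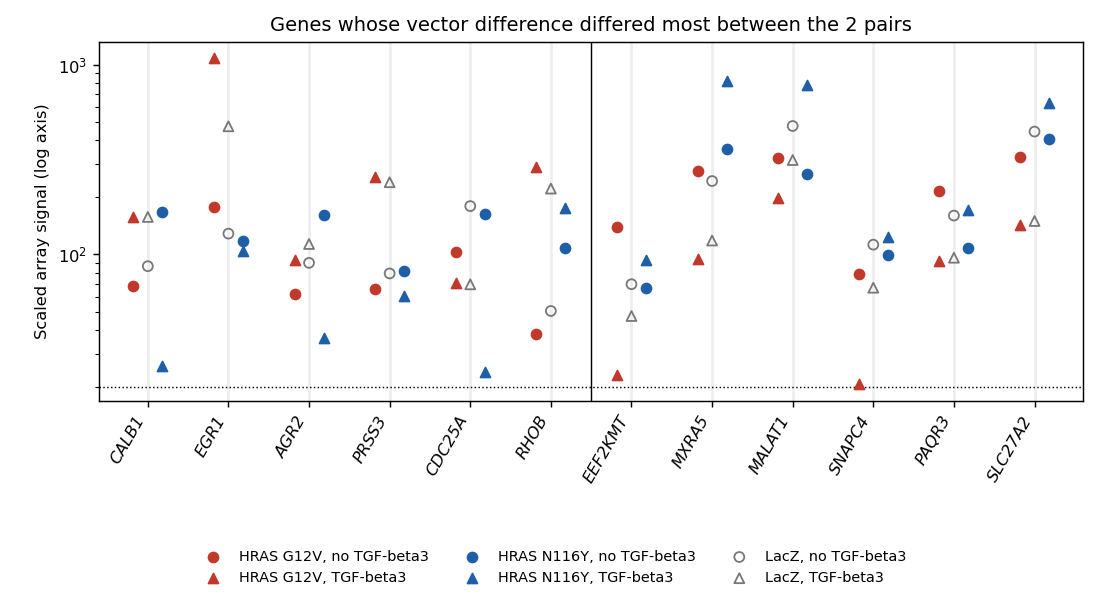
Scaled signal (log axis) of the 6 genes whose log2 ratio was largest with TGF-beta3 relative to without (left of the line) and the 6 with the reverse (right), 1 point per array; red is HRAS G12V, blue HRAS N116Y, open grey LacZ, circles without and triangles with TGF-beta3, and the dotted line is the floor of 20. EGR1 is high on the G12V array with TGF-beta3, and CALB1, AGR2 and CDC25A are low on the N116Y array with TGF-beta3.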

How the data were processed

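RNA of HaCaT cells was measured by hybridisation to Affymetrix arrays (8 samples, each on 1 array), of which the 4 with HRAS vectors form the comparison and the 2 with LacZ enter alternative fits and levels. The deposited table holds 1 linear intensity per probe set, which the authors had computed in MAS5 5.0, per the submitters' processing notes; the scaling target and genome build are not given in the sources used here. Each array's 2% trimmed mean was already 100 and was set to 100 again; detection calls were not used.

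Of 54675 probe sets, 62 controls were left out, 41091 had 1 gene symbol, 1801 several and 11721 none in the platform annotation; single-symbol ones were used, 41037 of them matched to RefSeq's gene table for names. Each of 19775 genes took its brightest probe set over the 4 arrays (10523 had several). Signals were set to at least 20, put on the log2 scale, and genes that reached 50 on 2 or more of the 4 arrays were tested: 8817. The log2 fold changes of dim genes are therefore too small. A gene could pass this filter on the 2 arrays of 1 vector alone. Among the genes named, CCL5, NEURL3, TMT1A, IL32, GBP2, CTSS, FGD3, PLAT, MYL9 and COL3A1 did so on the N116Y arrays. COL13A1 and HEY1 did so on the G12V arrays. For such genes the filter itself fixed the direction, also where they count in a list.

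Vector and TGF-beta state were the additive terms of a fit in limma 3.58.1 (R 4.3.3) with lmFit and eBayes with a trend, two-sided, with Benjamini-Hochberg adjustment over all genes tested; adjusted p under 0.05 was called. Its residual degree of freedom (1) also holds any change of the vector difference between the TGF-beta states. The median residual SD was 0.141. The 6-array fit had a prior of 8.21 degrees of freedom. The code was tested on simulated data. Precision is limited by the number of arrays.

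Named genes were HRAS; up to 15 each way with the largest difference among genes that differed 2-fold or more, in 1 direction, in both pairs, at least 100 on the higher side of both and above the floor on all 4 arrays; all tested ERK feedback genes; up to 4 of every other list, called ones first; and the 6 each way whose pairs differed most. Genes outside this rule are list members or other called genes chosen after their values were seen. The arrays, the lists and the rule were chosen with earlier results of these data known. Alternatives were the floor, the filter, quantile normalization, the mean of probe sets, no block, 6 arrays, no trend and leaving out each array.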

Additional observations from a re-analysis of the deposited data

Results flagged for a closer look

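In 17 of the genes named by the rule the log2 ratio of HRAS G12V to HRAS N116Y had opposite signs in the 2 TGF-beta states, so the arrays of one pair went one way and those of the other pair the opposite way. With 1 array for each condition these differences were not tested. The value given for each is the log2 ratio with TGF-beta3 minus that without it.

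It was positive, so that HRAS G12V was lower without and higher with TGF-beta3, for CALB1, a calcium-binding protein (3.91), AGR2, a protein disulfide isomerase (2.74), HMOX1, heme oxygenase (2.53), PRSS3, a trypsin (2.39), and the phosphatase CDC25A (2.24). The same sign was seen for RHOB (2.22), the integrin subunit ITGA5 (1.80), SERPINB1 (1.71), the phosphatase DUSP5 (1.61), the claudin CLDN4 (1.23) and the collagen chain COL1A1 (0.54). CALB1 had 67.9 and 157 on the G12V arrays without and with TGF-beta3 and 168 and 25.9 on the N116Y arrays, and CDC25A 103 and 71.0 against 164 and 23.9. The values of HMOX1 (26.7 and 94.4 against 52.7 and 32.2) were dim on all 4 arrays. RHOB had 37.9 and 287 against 108 and 176, and ITGA5 42.1 and 350 against 118 and 282, so in these the untreated G12V array was the lowest.

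It was negative for EEF2KMT, a methyltransferase (-3.06), MALAT1, a nuclear long noncoding RNA (-2.24), PAQR3 (-1.89), the Notch target HES4 (-1.34), the phosphatase DUSP1 (-0.87) and the receptor LGR4 (-0.80). EEF2KMT had 139 and 23.3 against 66.8 and 93.6, and MALAT1 321 and 199 against 265 and 777. The ratio without TGF-beta3 was near 0 in HES4 (0.01) and LGR4 (0.03).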

How the results depend on the processing

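Of the 121 named genes called with 4 arrays, 118 kept their direction under every alternative run, and 3 turned without the N116Y array with TGF-beta3. With 6 arrays, no trend, no block or another filter the difference is the same number, so direction could not change there. Named genes were also picked for large differences, so kept directions are no separate support. With 6 arrays 101 were called, with quantile normalization 113, with eBayes without a trend 106, with a floor of 50 117, with a floor of 10 121, and with a filter of 100 all 112 that were tested. Counts of all genes called higher and lower fell to 0 and 0 without a filter on dim genes (462 and 640 at an unadjusted p under 0.05 in limma) and to 0 and 0 without the TGF-beta block (147 and 248), and none of the 121 was called in either. When a gene's probe sets were averaged they were 2 (DUSP6 and GPAT3) and 11, with 9 of 109 named genes called. The 6-array fit gave 211 higher. Genes at least 2-fold higher in both pairs fell from 35 to 23 with a floor of 50 and to 22 when probe sets were averaged, and the lower ones from 108 to 60 with that average. The prior had 0.851, 3.13 and 3.51 degrees of freedom without a filter, without the block and with the mean of probe sets. Higher calls were 44.4% of all calls, and 15.4% when probe sets were averaged. Quantile normalization turned the sign of the list medians of junction (0.04 to -0.03), glycolysis (0.07 to -0.03) and keratinocyte marker genes (0.15 to -0.05).

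Leaving out 1 of the 4 arrays gave 90 to 708 higher and 211 to 794 lower calls; 83 of the 121 were called without the G12V array with TGF-beta3, 95 without the N116Y array with TGF-beta3, 107 without the untreated G12V array and all but 5 without the untreated N116Y array. Differences that turned lay between -1.32 and 1.29 for AGR2, -0.78 and 0.87 for PAQR3, -0.11 and 1.51 for SERPINB1, -1.22 and 2.52 for CALB1, -0.22 and 1.99 for PRSS3, and -1.94 and 0.25 for MALAT1. No paired analysis by replicate number was possible because each group had 1 array; the TGF-beta block is the pairing used. Signals near 20 limit what can be said of dim genes.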
